A study of Triticum aestivum with 3 samples.

Results

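Clustered binding regions of TaSPL6-D were examined here: places called in both CUT&Tag replicates, free of a mock peak, and close to another such place. Overlapping peaks of the 2 replicates (1 bp or more) were merged, which gave 7403 regions with a peak of each, of which 5664 lay on the 21 chromosomes. A mock peak overlapped none of 4920 of these (86.9%), called mock-free below. A mock-free region was a member when its midpoint lay within 10 kb of that of another on the same chromosome. This held for 1226 of the 4920 regions (24.9%), and single-linkage chaining joined them into 518 clusters. The other 3694 mock-free regions are called isolated. Peak calls and their positions chose the members, so the member count, the spacing under 10 kb and the absence of an overlapping mock peak describe the choice and are not results.

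The libraries came from protoplasts, wall-less cells released by digestion from cut seedlings of bread wheat (Triticum aestivum), which took up DNA in PEG solution. In CUT&Tag an antibody brings a transposase to its target, and the DNA cut there is sequenced. The labels name anti-GFP and control IgG antibodies. There were 2 CUT&Tag replicates and 1 mock, which the labels also call input. The sources used here do not give its antibody and construct, the promoter that drove the factor, the age of the seedlings or the wheat cultivar, nor whether the replicates came from separate preparations, so their spread may be technical. A factor expressed transiently in protoplasts may be more abundant than in the plant, and the lists hold no expression values against which to check the cell type.

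TaSPL6-D belongs to the SBP-box (SPL) family, plant transcription factors with a zinc-binding DNA-binding domain that recognises sites with a GTAC core. Members of the family act in the change from juvenile to adult growth and in the architecture of shoots and ears, and many are held down by the microRNA miR156. Binding sites of a factor can lie close together in one promoter or gene. In the nuclear genomes of plants, 2 further kinds of sequence recur in blocks: tandem arrays of ribosomal RNA genes, and copies of plastid DNA inserted in chromosomes, which carry plastid-type tRNA genes. No genome sequence was used here, so motifs and the origin of the sequence were not examined.

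Replicate 1 had 12848 deposited peaks, replicate 2 8401 and the mock 1754, with 20.1%, 22.5% and 44.5% of them on unplaced sequence, and named no sequence other than the 21 chromosomes and the unplaced one. Fragments at each summit and the caller's local background were recovered from the deposited fold and −log10 p of each peak. The median peak had 12, 12 and 16 fragments. The lowest background was 0.643, 0.49 and 0.36 fragments, and total fragments per library were not used here. With 2 libraries against 1, labels can be assigned in 3 ways and no exact test over libraries can give a p below 0.333, so no difference below carries a test. Shares carry Wilson 95% intervals, which cover counting error over regions and not the spread between libraries. Regions of 1 cluster are not independent, so these intervals are too narrow.

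Most clusters were small and tight. Of the 518 clusters, 410 held 2 regions (79.2%), 72 held 3 and 15 held 4. The remaining 21 held 5 or more, up to 10 regions in a stretch of 20911 bp on chromosome 1B. Cluster spans ran from 537 to 33293 bp with a median of 1998 bp (quartiles 1151 and 5731). Pairs spanned a median of 1573 bp, and clusters of 5 or more a median of 22491 bp. The 708 distances between neighbouring midpoints had a median of 1580 bp. They bunched at the short end: 210 of them (29.7%) fell between 500 and 1000 bp, 160 (22.6%) between 1000 and 2000 bp, and 162 (22.9%) between 5000 and 10000 bp. The shortest distance was 349.5 bp. Whether neighbouring calls are parts of a single wider enriched stretch was not tested. At the limit of the rule, 27 regions had their nearest neighbour 9000 to 10000 bp away. Their median was 11 fragments in replicate 1 and 12 in replicate 2. Just outside it, 22 regions had theirs at 10000 to 11000 bp, with medians of 18 and 12.

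**Figure D1:**
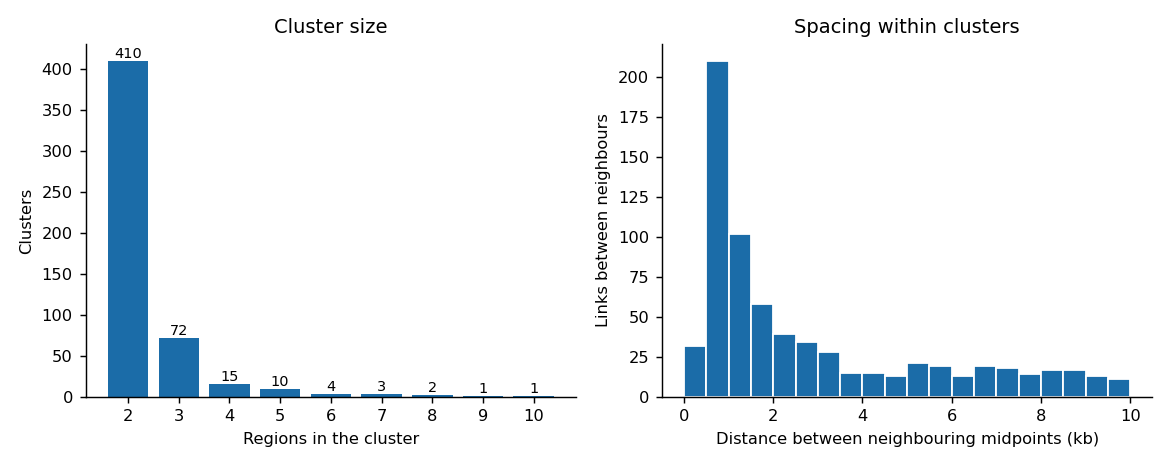
Left, number of clusters by the number of regions they hold; right, distances in kb between the midpoints of neighbouring regions of a cluster, in bins of 0.5 kb. Pairs make up 410 of 518 clusters, and the tallest bin of spacings is 500 to 1000 bp with 210 of 708.

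The number of clusters differed with the peaks used. Peaks of replicate 1 alone, the longer list, gave 3323 clustered regions in 1312 clusters, and peaks of replicate 2 alone gave 1616 in 680. Keeping peaks with −log10 q at or above 5 left 549 in 215. That limit was applied to the mock list too, so some of the 549 may overlap a weaker mock peak. With each replicate list shortened to the length of the mock list, 31 regions in 14 clusters were left.

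Clustered regions had more fragments and a higher background than isolated ones, and lower folds. In replicate 1 their summits held a median of 20 fragments (quartiles 12 and 34), where isolated regions held 11 (9 and 15). In replicate 2 the medians were 16 (11 and 24) and 10 (8 and 13). The deposited fold went the other way, with medians of 5.7 and 6.11 in replicate 1 and of 5.64 and 6.04 in replicate 2. The fold divides by the background, which MACS2 takes from the surrounding sequence. The background of clustered regions had a median of 3.27 times the lowest of the list in replicate 1 and 3.33 times in replicate 2, against 1.14 and 1.32 times for isolated regions. It stood at more than 10 times the lowest in 213 clustered regions (17.4%, Wilson 15.4 to 19.6%) and in 35 isolated ones (0.947%) in replicate 1. If the background came from the same library, fragments of a neighbouring region can themselves enter it, and that part was not tested. Widths were alike, with medians of 317 and 314 bp.

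Fragments in the replicates were closely related over the clustered regions. Over the 1226 regions, fragments in the replicates had a Pearson r of 0.953 on the log2 scale and a Spearman rho of 0.943. Over isolated regions r was 0.914 and rho 0.857. These values describe regions called in both lists and sharing the 2 libraries, and isolated regions cover a narrower middle range of heights. Within clusters, the region with the most fragments was the same in both replicates in 442 of 518 clusters (85.3%, ties counted as the same). Of these clusters 410 are pairs, with 357 matches, and in a pair unrelated heights would also match often, so the count is given as a description. Where it had at least 1.5 times the fragments of the next region in replicate 1, it was the same in 121 of 123. The median ratio of replicate 2 to replicate 1 fragments was 0.833 in clustered and 0.9 in isolated regions.

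A smaller share of clustered than of isolated regions lay at protein-coding genes, and larger shares lay at tRNA genes, rRNA genes and pseudogenes. A region counted as at a gene when its replicate 1 summit was in the body or within 2000 bp of either edge, by the RefSeq gene table for bread wheat (assembly IWGSC CS RefSeq v2.1). Protein-coding genes had 526 of 1226 clustered regions (42.9%, Wilson 40.2 to 45.7%) and 2109 of 3694 isolated ones (57.1%, 55.5 to 58.7%), beside 53.6% of all mock-free regions. Summits inside gene bodies made up 31.9% and 42.7%. At tRNA genes, which encode transfer RNAs, lay 68 clustered regions (5.55%, 4.4 to 6.97%) and 56 isolated ones (1.52%), with 2.52% over all mock-free regions. At rRNA genes, which encode ribosomal RNAs, lay 62 (5.06%, 3.96 to 6.43%) and 18 (0.487%), with 1.63% over all. Pseudogenes had 102 clustered regions (8.32%) and 166 isolated ones (4.49%), with 5.45% over all, and genes of long non-coding RNAs (lncRNAs) had 76 (6.2%) and 148 (4.01%), with 4.55% over all. Near snRNA genes, which encode RNAs of the spliceosome, were 2 clustered regions (0.163%, with 0.183% over all). Near snoRNA genes, whose RNAs guide the modification of rRNA, was none (Wilson upper end 0.312%, with 0.0407% over all). No annotated gene of these kinds was near 462 clustered regions (37.7%) and 1287 isolated ones (34.8%). Regions shared with the mock, 744 in all, stood apart in their gene share, 12.2%, and had 7.66% at tRNA and 4.17% at rRNA genes.

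**Figure D2:**
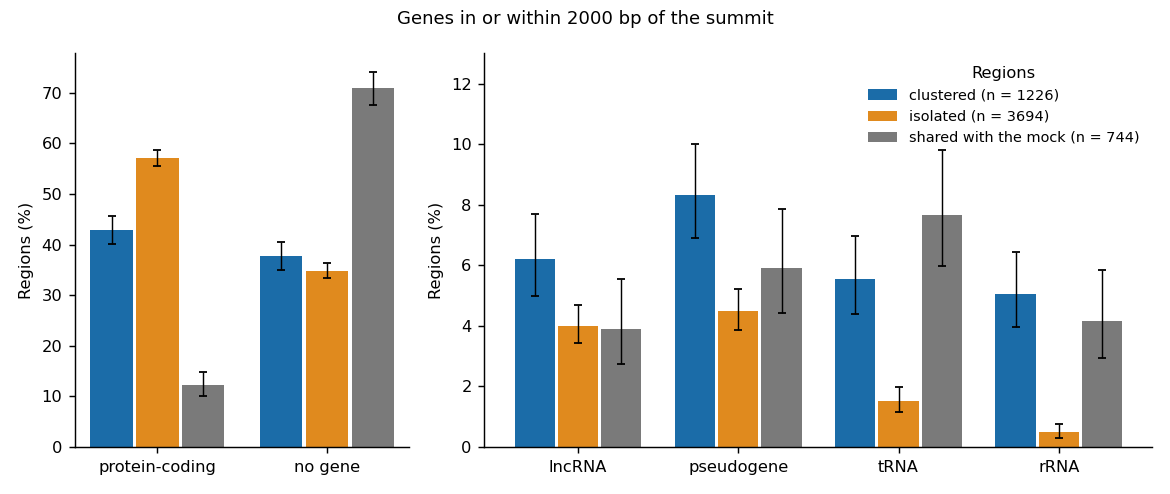
Share of regions in percent with a gene of each kind in or within 2000 bp of the summit, for clustered, isolated and mock-shared regions; bars are shares and error bars Wilson 95% intervals. Clustered regions stand at 42.9% for protein-coding genes against 57.1% of isolated ones, and at 5.06% against 0.487% for rRNA genes.

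The share at protein-coding genes moved with height. Among regions with 6 to 11 fragments in replicate 1, 69.4% of 278 clustered (Wilson 63.8 to 74.5%) and 67.5% of 2089 isolated regions (65.5 to 69.5%) lay at such genes. With 12 to 20 fragments the shares were 50.4% of 339 and 55.5% of 1080. At 21 to 34 fragments they were 34.4% of 317 (29.4 to 39.8%) and 20.1% of 339 (16.1 to 24.6%), the opposite order. At 35 or more they were 18.2% of 292 and 16.7% of 186. Thus no band of height showed a gap as wide as the pooled one in its direction. The rRNA share kept its order in every band, from 1.08% against 0.144% in the lowest (3 regions each) to 15.1% against 4.84% in the highest, and so did the tRNA share, from 1.08% against 0.718% to 9.25% against 5.38%. Over all heights the share at protein-coding genes was 19.5% of clustered and 42.1% of isolated regions when peaks had −log10 q at or above 5. There the mock list was cut too, so regions overlapping a weaker mock peak may be included. It was 6.45% of clustered regions with lists of equal length.

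By the genes beside them, the clusters fell into 6 kinds. A tRNA gene was near a region of 45 clusters and an rRNA gene near a region of 21 others. Of the rest, 190 (36.7% of clusters, 398 regions) had all their regions at 1 shared protein-coding gene, 58 had some or all regions at protein-coding genes with no gene common to all, 49 had only lncRNA, pseudogene or other non-coding genes, and 155 (29.9%, 360 regions) had no annotated gene near. The kinds differed in height and background. Regions of the 190 clusters had a median of 13 fragments in replicate 1 and 12 in replicate 2, on a background 2.1 and 2.59 times the lowest. Regions of tRNA clusters had 32 and 24 fragments, on 7.04 and 6.7 times. Those of rRNA clusters had 65 and 45, on 12.3 and 11.2 times. Clusters with no gene near were in between, with 22 and 17 fragments on 3.47 and 3.13 times.

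**Figure D3:**
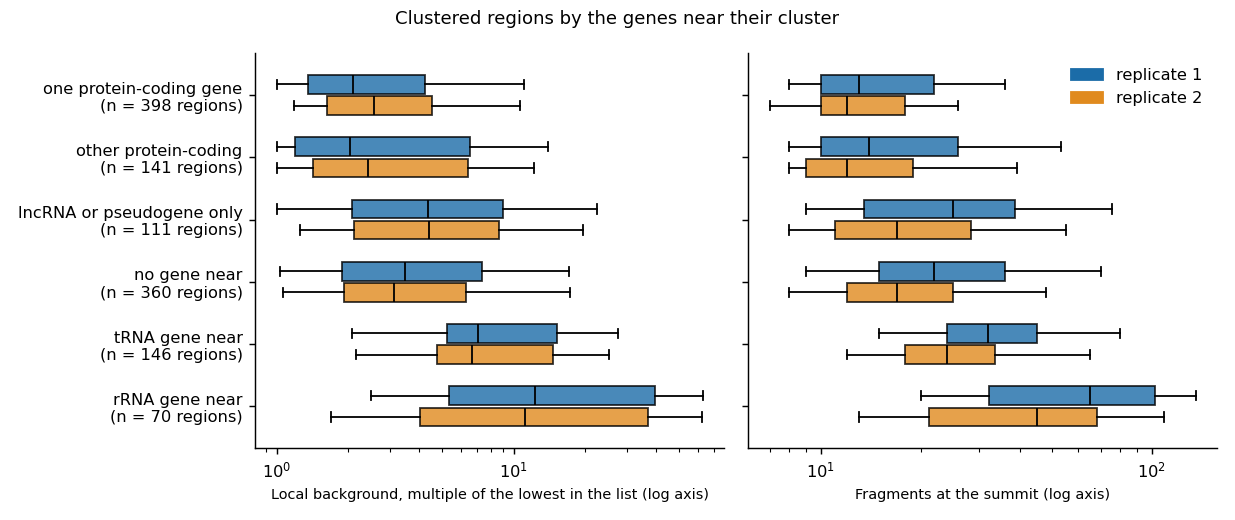
Local background (left, as a multiple of the lowest in the list) and fragments at the summit (right) of the 1226 clustered regions, on log axes, by the genes near their cluster; boxes are quartiles with the median, and whiskers reach the 5th and 95th percentiles of the regions. Median background is low for both kinds of protein-coding cluster, 2.1 and 2.59 times the lowest at 1 shared gene and 2.04 and 2.43 times for the others, and highest beside rRNA genes, 12.3 and 11.2 times.

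Clusters at a shared protein-coding gene were compact and mostly inside the gene. Pairs made up 173 of the 190, and none held 5 or more regions. The summits of a pair lay a median of 970 bp apart (quartiles 624 and 1563). All summits were in the gene body in 120 clusters, some in 60 and none in 10. In 30 of the 173 pairs, a summit lay within 500 bp of each gene edge. Since a neighbour at the same gene brings a second member with it, the gene share of clustered regions rests on these sets: for 438 of 1226 members (35.7%) the nearest clustered neighbour was at the same gene. Of the remaining 788 members, chosen partly by not sharing a gene, 88 (11.2%) were at a protein-coding gene.

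In all, 329 protein-coding genes had a clustered region and 220 had 2 or more. Of these 220, 197 had 2, 21 had 3 and a single gene each had 4 and 5. Median length was 3696 bp for the 220 genes and 4110 bp for the 2252 genes at isolated regions, and 17825 bp for the 23 genes with 3 or more. At these 23 genes the midpoints farthest apart lay 1316 to 48646 bp from each other. Whether gene length bears on the number of regions was not tested. The table gives no product names, and no gene at a clustered region has a common name in it, so roles are not stated.

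LOC123039385 on chromosome 2B had the most regions, 5 in 3 clusters between 676169496 and 676218667, with 4 summits inside its 69596 bp. They held 26, 26, 35, 9 and 15 fragments in replicate 1. In replicate 2 the same regions held 23, 20, 22, 8 and 10. The first 3 were the higher ones in both libraries, with a background of 2.06 and 2.23 times the lowest over the 5 and a mock peak within 10 kb of 2 of them. LOC123092087 on 4B had 4 regions within 322210631 to 322213721, all inside the gene of 61834 bp. Their fragments were 18, 23, 17 and 20 in replicate 1 and 17, 23, 17 and 19 in replicate 2, with the second region highest in both. Its background was higher, 6.58 and 7.43 times the lowest, and its folds were low, from 3.45 to 4.59 in replicate 1.

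The 21 genes with 3 regions split by length. LOC123092158 on 4B (351620010 to 351623663), a gene of 34860 bp, had 27, 31 and 27 fragments in replicate 1 and 20, 22 and 24 in replicate 2, with all 3 summits inside. LOC123086070 on 4A (341629193 to 341633133), of 35644 bp, had 26, 25 and 25, and then 21, 20 and 17. Heights were nearly even over the 3 regions at each of these genes, whose farthest midpoints lay 3321.5 and 3486 bp apart. They were less even at another long gene: LOC123142565 on 6D, of 33522 bp, had 55, 33 and 50, and then 31, 20 and 23. A mock peak lay within 10 kb of all 3 of its regions, which stood in a cluster with a tRNA or rRNA gene near. Genes over 30000 bp numbered 11 of the 23 with 3 or more regions. Others were short: LOC123065121 on 3B, of 585 bp, had regions between 163298271 and 163301895 with 36, 46 and 78 fragments in replicate 1 and 18, 30 and 42 in replicate 2, and 1 of its summits was inside. LOC123185622 on 2A, of 1801 bp, had 42, 33 and 26 fragments, and then 34, 22 and 20, all 3 beside the gene and none inside. LOC123170843 on 7D had the highest single region of these genes, with 38, 119 and 60 fragments in replicate 1 and 29, 103 and 61 in replicate 2, on a background 34.8 and 35.5 times the lowest and with a mock peak within 10 kb of each region. A mock peak lay within 10 kb of a region at 6 of the 23 genes.

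The number of regions at a gene moved with the peaks used. From replicate 1 alone, LOC123086070 had 8 clustered regions in place of 3, LOC123142565 and LOC123155514 had 6, and LOC123092158, LOC123062205 and LOC123162121 had 5, while LOC123039385 stayed at 5 and no longer had the most. With −log10 q at or above 5, LOC123086070, LOC123092158 and LOC123092087 had 0 and LOC123039385 had 2. LOC123185622 had 0 and LOC123170843 had 1 at that limit.

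Among genes with 2 clustered regions, the highest mean percentile rank of fold was that of LOC123041300 on 2B. Its regions (407523045 to 407524403) had 34 and 56 fragments in replicate 1 and 25 and 19 in replicate 2, so the order of the regions turned between the libraries. LOC123141118 on 1A (87404944 to 87405799) had 29 and 16, and then 16 and 10. LOC123150713 on 7A (207560884 to 207562438) had 23 and 16, and then 20 and 15. LOC123166278 on 7D (161031439 to 161032809), a gene of 1646 bp, had 14 and 11 in replicate 1 and 12 and 12 in replicate 2, on a background of 1.14 and 1.42 times the lowest. The 10 genes of this kind with the highest ranks had 11 to 56 fragments in replicate 1 and 10 to 25 in replicate 2, and 1 of them, LOC123051035 on 2D, had a mock peak within 10 kb.

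Clusters beside tRNA genes held mostly plastid-type tRNAs. The 45 clusters held 146 regions and spanned a median of 6756 bp. The median was 7762 bp for the 58 other protein-coding clusters, 5211 bp for rRNA clusters and 1435 bp for clusters at 1 shared gene, which sharing a gene keeps short. Plastids carry their own set of tRNA genes with a limited choice of anticodons. Of the 67 tRNA genes at clustered regions, 65 had an amino acid and anticodon of that set (97.0%, Wilson 89.8 to 99.2%), as did 66 of 69 at isolated regions, 72 of 72 at regions shared with the mock and 62.5% of all 3411 tRNA genes on the chromosomes. The set is therefore as frequent at isolated and mock-shared regions as at clustered ones. Leading names were TRNAN-GUU with 13 genes, TRNAR-ACG with 8, TRNAL-CAA with 6 and TRNAM-CAU with 6. The exceptions were TRNAP-GGG and TRNAR-GCG. In the plastid genome, the genes for the asparagine tRNA with GUU and the arginine tRNA with ACG are neighbours in the inverted repeat.

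The largest of these clusters lay on 3B, from 213090043 to 213123335, with 9 regions over 33293 bp, the widest span of any cluster. The tRNA genes in or beside its span were TRNAL-CAA, TRNAR-ACG, TRNAN-GUU and a second TRNAR-ACG and TRNAN-GUU. Replicate 1 had 27 to 67 fragments at the regions, with a median of 37. Replicate 2 had 18 to 57, with a median of 26. A pair in the middle stood above the rest in both, with 65 and 67 fragments in replicate 1 and 43 and 57 in replicate 2. Both regions of this pair lay in the protein-coding gene LOC123067460, and a mock peak lay within 10 kb of each.

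An 8-region cluster on 5D, from 4873099 to 4905422, had in or beside its span TRNAS-GGA, TRNAT-UGU and TRNAF-GAA, and a 7-region cluster on 1A, from 556448346 to 556469813, had TRNAF-GAA, TRNAT-UGU, TRNAS-GGA and TRNAS-GCU. The serine GGA, threonine UGU and phenylalanine GAA genes stand in that order along the plastid genome of grasses, with other genes between them. On 5D the regions had 23 to 39 fragments in replicate 1 and 16 to 25 in replicate 2. On 1A they had 23 to 46 and 19 to 41. Heights were thus fairly even along both clusters. A mock peak lay in or within 10 kb of the 5D one. From 556448346 to 556517006 on 1A, the 1A cluster and 1 more stood in a stretch with 3 mock peaks. Of these 2 clusters, 1 had a mock peak in or within 10 kb. The regions of the second, at LOC123049085, had none within 10 kb of their midpoints. The other cluster of 8, on 3D from 591787625 to 591810115, held TRNAN-GUU and the protein-coding gene LOC123076604, with 24 to 65 and 18 to 57 fragments.

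Clusters beside rRNA genes had the most fragments. The 21 clusters held 70 regions, 33 of them in 7 clusters on 1B and 24 in 9 clusters on 1A, and lay also on 4A, 4D, 5D and 6B. By length, the rRNA genes near clustered regions were of 4 sizes. There were 42 of about 119 bp among 2342 such genes of the table (1.79%), 28 of about 156 bp among 104 (26.9%), 19 of about 1811 bp among 61 (31.1%) and 24 of about 3388 bp among 66 (36.4%). In the same order of size, isolated regions were near 31, 7, 8 and 10 genes. The 744 regions shared with the mock were near 18, 14, 14 and 11. Genes of the last 3 sizes alternate along ribosomal arrays and those of the first form arrays of their own.

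The cluster with the most regions, 10, lay on 1B from 86500372 to 86521282, with a mock peak in or within 10 kb of it. Its regions had 78 to 186 fragments in replicate 1, with a median of 103. They had 49 to 133 in replicate 2, with a median of 72. The first region was the highest in both, with 186 and 133. Folds were still low, with medians of 3.97 and 3.98, since the background stood at 40.5 and 37.0 times the lowest. A second 1B cluster, from 551324284 to 551350210, had 7 regions with 65 to 136 and 44 to 109 fragments on 54.8 and 50.3 times the lowest, and 5 mock peaks between its regions.

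At the start of 1A, 6 regions lay between 20285 and 51251 among 12 rRNA genes. Replicate 1 had 52, 46, 98, 34, 65 and 24 fragments in order along the chromosome. Replicate 2 had 37, 26, 62, 31, 31 and 21. The third region was the tallest in both libraries. Their spacings were 4842.5, 3359, 4800, 8940 and 8752 bp. The last 2 lay within, and the first 3 below, the quartiles of the gene spacing, which had a median of 8636 bp (quartiles 8306 and 10663) between neighbouring rRNA genes of about 1811 bp on 1A that lay under 20 kb apart. Background was 7.71 and 6.36 times the lowest by the median of the regions, below that of both 1B clusters just described. No mock peak lay within 10 kb of this cluster. A cluster on 1B from 47152317 to 47177066, with rRNA genes of about 119 bp, had 5 regions of 10 to 39 and 7 to 30 fragments on 2.5 and 1.69 times the lowest, the lowest multiples of the 5 rRNA clusters with 5 or more regions.

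Clusters with no annotated gene near them included 5 with 5 or more regions. On 7A, 7 regions lay from 388977226 to 389001323. Replicate 1 had 47, 42, 28, 94, 56, 100 and 201 fragments along it. Replicate 2 had 28, 30, 24, 73, 48, 85 and 138. The last region was the tallest in both. From 388977226 to 389029003, this cluster and 1 more stood in a stretch with 4 mock peaks. Of these 2 clusters, 1 had a mock peak in or within 10 kb. The regions of the second, at LOC123147009, had none within 10 kb of their midpoints. On 6D, 6 regions lay from 434381565 to 434407384 with 45, 50, 103, 32, 19 and 19 fragments in replicate 1, and with 28, 41, 69, 30, 10 and 12 in replicate 2. In replicate 1 the background was 7.74 to 13.3 times the lowest at its first 4 regions and 1.04 and 1.56 times at the last 2. No mock peak was within 10 kb of it. On 5D, 6 regions from 141896695 to 141911518 had 21, 40, 54, 38, 28 and 18 fragments, and then 13, 27, 45, 36, 21 and 16, a single rise and fall in both libraries. The highest background of any cluster was on 6B, from 384511132 to 384513955, where 3 regions with 296 to 435 and 213 to 410 fragments stood on 163 and 185 times the lowest. There the folds had medians of 3.23 and 2.57.

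**Figure D4:**
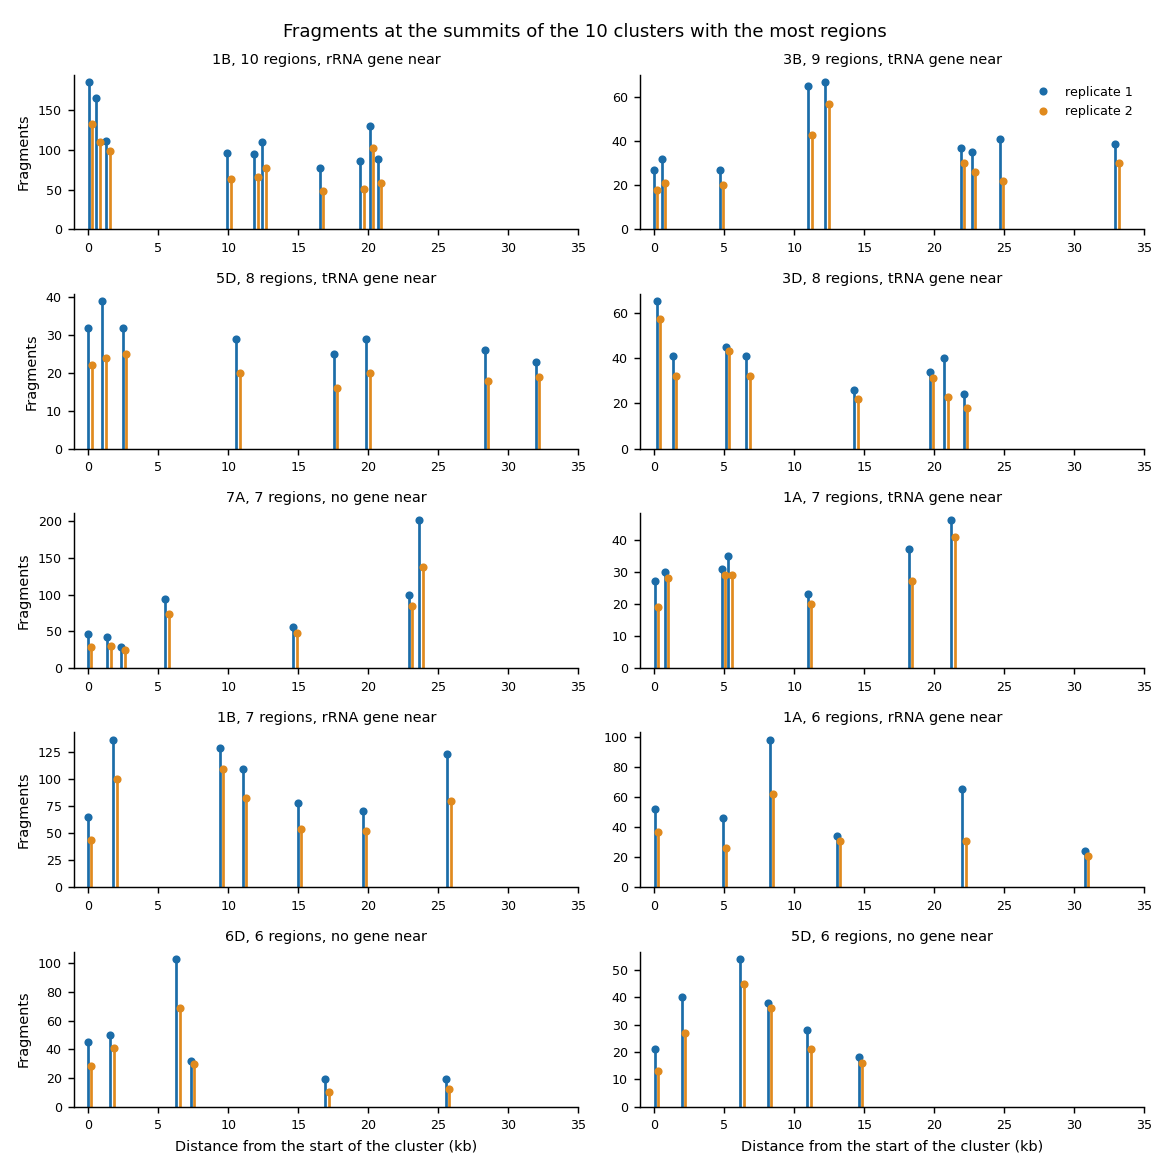
Fragments at the summit of each region in replicate 1 and replicate 2, drawn side by side, against the distance in kb from the start of the cluster, for the 10 clusters with the most regions; each panel has its own vertical axis, from 0. The replicates follow each other along the clusters, for example with the tallest region last on 7A (201 and 138 fragments) and first in the 10-region cluster on 1B (186 and 133).

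A larger share of clustered than of isolated regions had a mock peak nearby. No member overlaps a mock peak by choice, but the rule did not use mock peaks nearby. A mock peak lay within 10 kb of the midpoint of 273 clustered regions (22.3%, Wilson 20.0 to 24.7%) and of 137 isolated ones (3.71%, 3.15 to 4.37%), with 8.33% over all mock-free regions. In both sets the share was larger in the higher bands. It was 1 of 278 (0.36%) and 12 of 2089 (0.574%) at 6 to 11 fragments, 22.4% and 13.6% at 21 to 34, and 61.0% (55.3 to 66.4%) and 28.5% (22.5 to 35.4%) at 35 or more. At protein-coding genes it was 42 of 526 clustered (7.98%) and 27 of 2109 isolated regions (1.28%). Away from them it was 231 of 700 (33.0%) and 110 of 1585 (6.94%).

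By kind, the clusters at 1 protein-coding gene had the fewest mock peaks beside them. A mock peak lay in or within 10 kb of 5 of these 190 clusters (2.63%, Wilson 1.13 to 6.01%), of 39 of the 155 with no gene (25.2%, 19.0 to 32.5%), of 9 of the 21 with rRNA genes (42.9%, 24.5 to 63.5%) and of 28 of the 45 with tRNA genes (62.2%, 47.6 to 74.9%). Longer clusters offer more length for one: it was 46 of 410 pairs and 17 of 21 clusters of 5 or more. Of the 10 clusters with the most regions, 6 had one. In 42 clusters a mock peak lay between the regions. These counts set places beside the calls of 1 mock library and compare no conditions. Whether sequence present in many copies took part in these clusters was not tested.

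**Figure D5:**
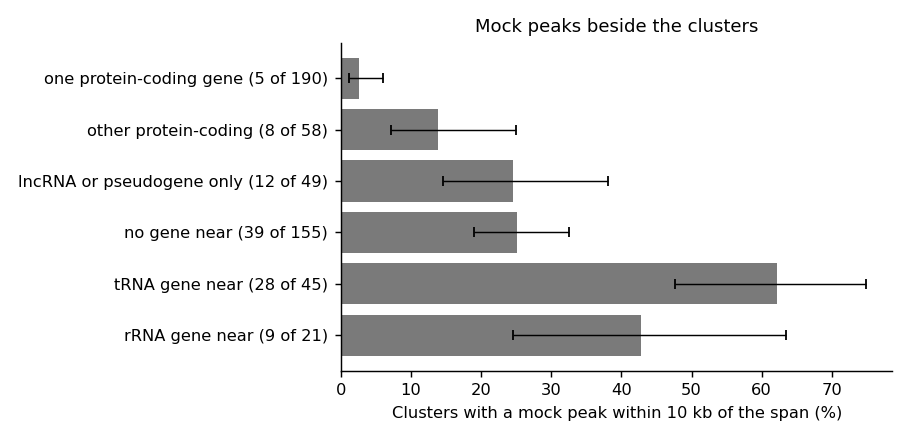
Share of clusters in percent with a mock peak in or within 10 kb of their span, by the genes near the cluster; bars are shares, error bars Wilson 95% intervals over clusters, and counts stand in the labels. It runs from 2.63% for clusters at 1 protein-coding gene to 62.2% for those with a tRNA gene.

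The 5 clustered regions whose folds ranked highest, by the mean of their percentile ranks in the replicates, had no annotated gene within 2000 bp of their own summit. The first, on 5A from 647413247 to 647413490, had 68 and 46 fragments and folds of 29.7 and 23.0. Its neighbour, 9530 bp away, had 7 and 8 fragments. The second, on 2B from 483048129 to 483048580, had 135 and 121 fragments and folds of 22.2 and 24.5, in a cluster of 3 with a tRNA gene near another region. Next was a region on 3B from 749744665 to 749745045 with 53 and 39 fragments, whose neighbour 499.5 bp away had 22 and 11. A region on 1B from 603708314 to 603708676 had 72 and 44, and its neighbour 633 bp away had 55 and 23. The fifth, on 1A from 87146 to 87349, had 51 and 35, with a neighbour of 20 and 14 that had an rRNA gene near it. No mock peak lay within 10 kb of any of the 5. Each of the 5 had more fragments than its neighbours in both libraries, which their choice by fold rank in both makes likely.

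Clusters occurred on all 21 chromosomes and in like shares on the 3 subgenomes of bread wheat, A, B and D. Clustered regions made up 401 of 1611 mock-free regions on A (24.9%, Wilson 22.8 to 27.1%), 483 of 1860 on B (26.0%, 24.0 to 28.0%) and 342 of 1449 on D (23.6%, 21.5 to 25.9%). The kinds were spread less evenly. Of the 45 tRNA clusters, 11 were on A, 11 on B and 23 on D, and of the 21 rRNA clusters 10, 9 and 2. Clusters of all kinds numbered 177, 207 and 134. Neighbouring clusters are counted apart here: 9 of the rRNA clusters on A lay together at the start of 1A. On D, 3 tRNA clusters lay in 1 stretch of 1D and 3 in 1 of 5D. By chromosome the share ran from 16.7% on 4D (30 of 180) to 34.7% on 1A (87 of 251, Wilson 29.0 to 40.7%), followed by 32.1% on 5D (89 of 277). Without its first 1 Mb, which held 24 rRNA-cluster regions, 1A stood at 29.0%. Without 3 stretches of neighbouring clusters, 5D stood at 23.7%. Both cuts took out places rich in clusters, which by itself lowers the share, and the other chromosomes were left whole. In the outer 10% at either chromosome end lay 356 clustered regions (29.0%, 26.6 to 31.6%) and 922 isolated ones (25.0%, 23.6 to 26.4%), with chromosome length taken from the last gene or peak.

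Some clusters stood in longer stretches. Linking clusters with gaps of at most 100 kb gave 24 stretches with 66 clusters and 215 regions. The largest, at the start of 1A from 20285 to 355584, had 24 regions in 9 clusters, all with rRNA genes, and 92 rRNA and no protein-coding genes in or beside it. Its regions had 20 to 108 and 14 to 76 fragments. It had 5 mock peaks in it, and 1 of its 9 clusters had one in or within 10 kb. On 1D, from 256948139 to 257101187, 18 regions in 4 clusters lay among 14 tRNA genes, all 14 of the plastid set, with 20 to 68 and 14 to 52 fragments. On 5D, from 506502067 to 506622702, 17 regions in 4 clusters lay among 17 such genes, with 20 to 80 and 12 to 76. On 7D, from 233498669 to 233593579, 14 regions in 4 clusters lay among 11, with 20 to 68 and 14 to 43. These 3 tRNA stretches had 5, 7 and 6 mock peaks in them, and backgrounds of 6.18, 11.3 and 10.4 times the lowest in replicate 2. Other stretches had neither kind of gene: on 4D, from 393139639 to 393171909, 5 regions in 2 clusters had no gene and no mock peak near, with 8 to 25 and 9 to 24 fragments on 1.76 and 1.93 times the lowest background.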

How the data were processed

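Per the submitters' processing notes, MACS2 2.2.7.1 called the peaks after bcl2fastq 2.17 and Trimmomatic 0.39; for aligner, build and calling options: not given in the sources used here. Each library has its own narrowPeak list from the authors (replicates not pooled), with a fold (a linear ratio, 1 added above and below), −log10 p and −log10 q values, and a score. The deposited score was not used: it repeats −log10 q, times 10 and rounded down, in 99.97%, 99.99% and 100% of peaks.

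From each deposited fold and −log10 p, the whole number of fragments and the background that give both under the Poisson formula of MACS2 were solved, within a relative tolerance of 1e-04 for 100% of peaks. Fragments carry no molecular identifiers. A merged region takes the values of its highest-fold peak in each replicate. Analyses used Python 3.11.15, pandas 2.3.3 and scipy 1.17.1, and the merging, chaining and solving were tested on simulated lists. Coordinates are as in the deposited lists, counted from 1. The lists name no build: the gene table's assembly was joined to them because 42.9% of clustered summits lay at protein-coding genes, against 6.53% after a move by 1000000 bp. A move by 2000 bp left 40.5%, so the join was not checked at the scale of gene bodies and edges. The table gives no strand, and none of its coordinates are printed.

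The members, gene kinds and tRNA set were chosen with earlier results of these data known, and the grouping of clusters by gene kind, the height bands and the linking of clusters into stretches after the values were seen. By the naming rule, clusters with the most regions (10), the widest 5, the 5 regions whose folds ranked highest, genes with 3 or more regions and the 10 highest with 2 were considered, and the text gives the leading ones. Clusters singled out beyond these were chosen after their values were seen. Planned lists by product name were not run, since product names were not used here. Unplaced sequence was left out.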

Additional observations from a re-analysis of the deposited data

Results flagged for a closer look

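Inside the cluster spans lay 139 replicate 1 peaks without a replicate 2 peak, in 93 of the 518 clusters, where the mock had 60 peaks in 42 clusters. They were singled out because the comparisons of the report do not use such peaks. Clusters with tRNA genes held 30 of them, those with no gene near 39 and those at 1 shared protein-coding gene 26.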

How the results depend on the processing

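Of 96 values recomputed under an alternative, 50 stayed within the interval of the reported value or within 1.5 times of its count. The order of clustered against isolated regions held in 75 of 76 comparisons. The exception was the tRNA share with lists of equal length, 3.23% of clustered and 4.13% of isolated regions. The height bands were not among the 76. In them the clustered share at protein-coding genes was the smaller only at 12 to 20 fragments, and intervals were apart only at 21 to 34, where it was the larger. The 76 include the gene share without regions whose neighbour was at the same gene, a removal that itself lowers the clustered share. Chaining within 5 kb moved the replicate 2 median fold to 5.52. Peaks with −log10 q at or above 5 gave 549 regions in 215 clusters, with 19.5% at protein-coding, 10.9% at rRNA and 8.74% at tRNA genes, 46.8% with a mock peak within 10 kb, median folds of 6.66 and 6.48 and median fragments of 34 and 24. The limit was applied to the mock list too, so these regions can overlap a weaker mock peak. The 46.8% counts peaks of the full mock list, so it is not comparable with the share in the report. With lists of equal length there were 31 in 14, with 6.45%, 41.9%, 3.23% and 64.5%, folds of 6.65 and 6.27 and fragments of 98 and 69. Leaving out regions with a mock peak within 10 kb gave 51.1% at protein-coding, 3.17% at rRNA and 3.39% at tRNA genes, a replicate 1 fold of 5.87 and fragments of 16 and 13. The gene share was 38.7% within 500 bp of an edge, 49.8% within 5000 bp and 11.2% without regions whose nearest clustered neighbour was at the same gene. Leaving out clusters with a tRNA or rRNA gene, chosen after seeing the data, gave 48.4% at protein-coding genes, 15.8% near a mock peak and fragments of 17 and 14. From a single replicate there were 1616 to 3323 regions and 680 to 1312 clusters, with 45.9 to 48.1% at protein-coding, 3.43 to 3.9% at rRNA and 4.42 to 4.83% at tRNA genes and 15.2 to 19.6% near a mock peak; the fold was 5.36 in replicate 1 and 5.53 in replicate 2, and fragments were 14 in each. Single replicates give more regions because a call in both is not required; the cause of the other moves was not tested. Of the 33 genes of the naming rule, 20 kept 2 or more regions with −log10 q of at least 5 and 0 with lists of equal length. No paired analysis was possible because there is only 1 mock. No comparison at matched depth was run, so what depth limits was not tested.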

Other observations

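On unplaced sequence, which the report leaves out, 1739 regions had a peak of each replicate and 1037 of them no mock peak. Of these 1037, 452 (43.6%) lay within 10 kb of another, beside 24.9% on the chromosomes. How the unplaced pieces were joined is not given in the sources used here, so distances there may cross from piece to piece, and no genes were looked up.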
